A study of Homo sapiens with 8 samples.

Results

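The ligands of the tumour necrosis factor (TNF) superfamily described here are TNF, LTA, LTB, TNFSF9, TNFSF10, TNFSF13, TNFSF13B, TNFSF14 and TNFSF15, taken as every probe set that the array's annotation assigns to 1 of these 9 genes and to no other. That gave 16 probe sets of 8 genes, out of 45253 probe sets of 18239 genes. Both probe sets of TNFSF13 (APRIL) are also annotated to the readthrough gene TNFSF12-TNFSF13, so TNFSF13 is given no value. The cells were NS-SV-AC, an immortalised line labelled as human salivary gland acinar cells, exposed to TNF-α protein at 20 ng/ml or, as the control, to bovine serum albumin (BSA), for 2, 6, 12 or 24 h. There were 8 arrays, 1 for each treatment and time, with no replicate at any time. Levels are the authors' log2 RMA values, and every difference is TNF-α minus BSA on that scale, so that a difference of 1 is 2-fold. Each value is of bulk RNA, in which more expressing cells and more RNA per cell cannot be told apart.

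Ligands of this family are mostly made as trimers on the cell surface, and several are cut off to act as soluble cytokines. They bind receptors of the TNF receptor superfamily, which start either NF-κB signalling and survival or, through death domains, apoptosis. TNF and LTA are inflammatory cytokines that share receptors. LTB anchors LTA in the membrane-bound lymphotoxin trimer, which acts on the lymphotoxin β receptor in the building of lymphoid tissue. TNFSF10 (TRAIL) triggers apoptosis through death receptors, and TNFSF13B (BAFF) keeps B cells alive. BAFF is well known in the salivary gland because of its part in Sjögren disease, in which B cells gather in the gland. TNFSF9 (4-1BBL), TNFSF14 (LIGHT) and TNFSF15 (TL1A) are best known as costimulators of T cells.

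Of the 8 ligand genes measured, only LTB, TNFSF10 and TNFSF13B were at least 2-fold higher in TNF-α at 1 time or more. None of the ligands passed the tests given below over 4 times, over 2, 6 and 12 h, or for a change with time. LTB was highest at 6 and 12 h, TNFSF10 at 12 h, and TNFSF13B at 24 h. TNF was under 2-fold higher at 2 and 6 h. LTA, TNFSF9, TNFSF14 and TNFSF15 differed by less than 2-fold at every time.

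In the RefSeq annotation of GRCh38.p14, LTB (chr6:31580558-31582425), TNF (chr6:31575565-31578336) and LTA (chr6:31560610-31574324) are neighbours. TNFSF10 lies at chr3:172505508-172523430 and TNFSF13B at chr13:108269629-108308484. The promoter sequences of the 3 genes that differed most are shown because they hold letters known as binding motifs of the factors that act downstream of TNF-α and of interferons. They come from RefSeq on the build GRCh38.p14 and are written on the strand of the gene. All 9 genes had promoter entries, 14 in all, each with 250 bases before and 50 bases after a transcription start. Capitals mark the NF-κB consensus in LTB and the interferon-stimulated response element (ISRE, searched as GAAANNGAAA) in the others. In LTB and TNFSF10 the motif lies on the opposite strand, so that the capitals read as its reverse complement. The LTB and TNFSF10 sequences are the 250 bases upstream of the start, and for TNFSF13B and TNFSF9 30 bases around the motif are given. TNFSF9 is shown as a ligand that holds the same motif and stayed under 2-fold at every time.
LTB, chr6:31582426-31582675, minus strand: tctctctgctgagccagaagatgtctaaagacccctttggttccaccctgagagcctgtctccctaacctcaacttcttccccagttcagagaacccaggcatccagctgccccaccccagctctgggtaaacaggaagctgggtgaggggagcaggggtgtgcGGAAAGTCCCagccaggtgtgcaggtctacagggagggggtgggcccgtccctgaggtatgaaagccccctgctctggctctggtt
TNFSF10, chr3:172523431-172523680, minus strand: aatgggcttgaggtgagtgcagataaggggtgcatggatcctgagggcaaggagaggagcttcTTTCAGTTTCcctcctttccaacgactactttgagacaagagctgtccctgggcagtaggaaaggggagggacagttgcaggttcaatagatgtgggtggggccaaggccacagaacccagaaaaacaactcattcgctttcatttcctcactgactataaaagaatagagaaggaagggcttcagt
TNFSF13B, chr13:108269637-108269666, plus strand: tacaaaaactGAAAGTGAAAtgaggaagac
TNFSF9, chr19:6530822-6530851, plus strand: tggaaggccgGAAACGGAAAggagagcgaa

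Counted from the transcription start, the NF-κB consensus of LTB begins at base −86, and the ISRE begins at −187 in TNFSF10 and −194 in TNFSF9. In TNFSF13B the ISRE begins at base −71 from 1 annotated start and at base 19 after another. Both strands were searched. An ISRE was also present in TNFSF14, after its start, and the NF-κB consensus in LTA, TNFSF13 and TNFSF14. The third motif searched, the STAT element GAS (TTCNNNGAA), was present in LTA and LTB. Of 34796 distinct promoter sequences of 300 bases, 5.91% held the NF-κB consensus, 3.57% the ISRE and 7.67% the GAS letters. Such matches are a description of the sequence and show no binding.

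The treatment was visible in NFKBIA, the NF-κB inhibitor that NF-κB itself induces, whose 3 probe sets were 2.43 to 3.46 higher at every time. The labelled cell type was set against marker lists, with the median of the BSA means of all probe sets, 4.38, as the mark. Of 14 acinar genes 10 lay under it on every probe set, among them AQP5 (4.03 to 4.13 in TNF-α, 3.88 to 4.06 in BSA) and MUC7 (2.80 to 3.07 in TNF-α, 2.81 to 2.87 in BSA), and 4 did not (SLC12A2, CST4, PRB2 and PRH1). Of 6 epithelial genes EPCAM, CDH1 and KRT19 lay under it, and KRT8, KRT18 and CLDN4 had probe sets above it, with KRT18 at 6.74 to 10.16 in TNF-α and 9.08 to 10.33 in BSA. Of 7 fibroblast genes COL3A1, LUM, DCN and PDGFRB had probe sets above it, while COL1A1, COL1A2 and THY1 lay under it. Of 11 leukocyte genes 10 lay under it, and CD68 had a probe set above it. The TNF-α array at 24 h stood apart: its 3′ control probe set for GAPDH read 6.28 above the 5′ one, against 0.20 to 0.37 on the other 7 arrays; such a gap widens where RNA is degraded. Values at 24 h rest on that array, and the part of RNA quality in them was not tested.

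**Figure D1:**
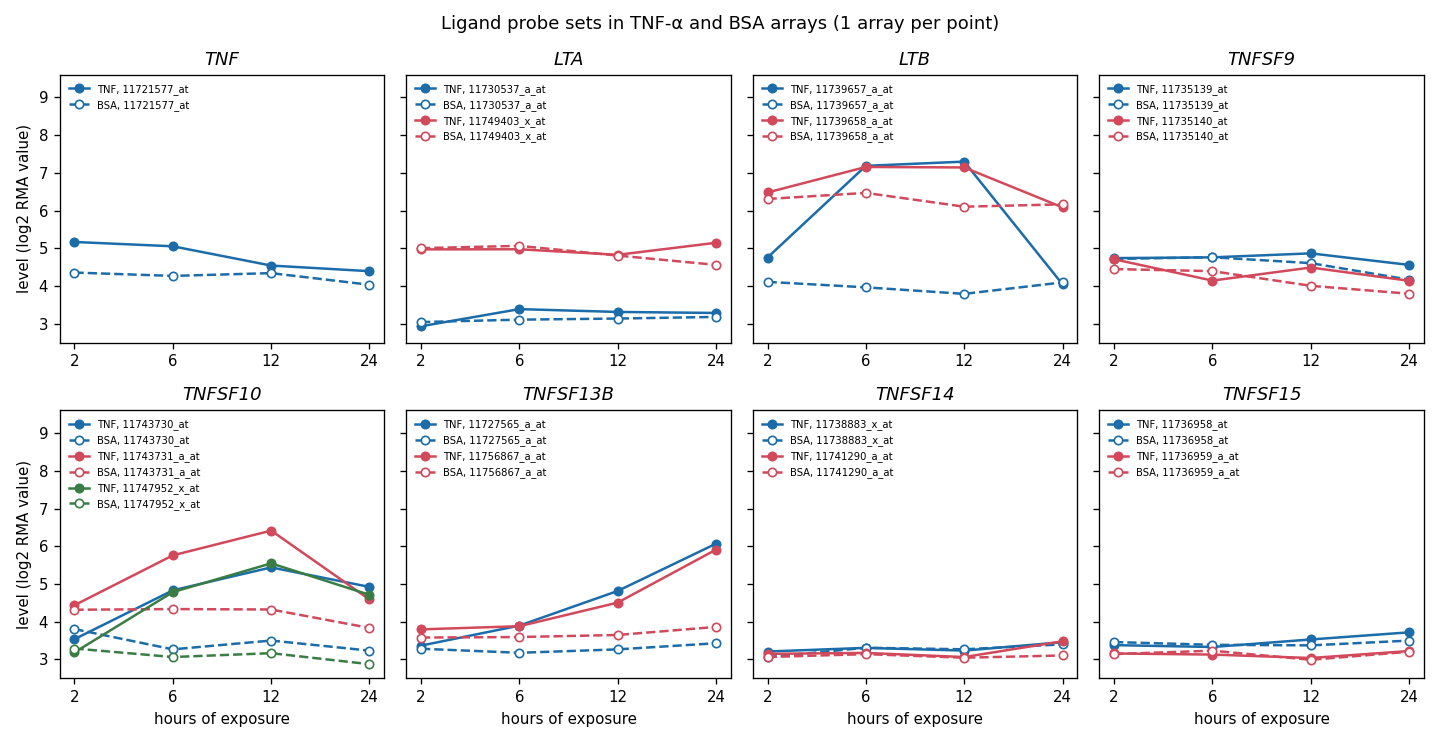
Level (log2 RMA value) against hours of exposure for the 16 ligand probe sets, 1 panel per gene and 1 colour per probe set. Filled points with solid lines are TNF-α arrays and open points with broken lines BSA arrays, 1 array per point. LTB and TNFSF10 stand above BSA at 6 and 12 h, TNFSF13B climbs to 6.07 and 5.91 in TNF-α at 24 h, and the lines of TNFSF14 and TNFSF15 lie close together.

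LTB had 2 probe sets. On 11739657_a_at it read 4.76, 7.19, 7.30 and 4.04 in TNF-α at 2, 6, 12 and 24 h, and 4.11, 3.97, 3.79 and 4.10 in BSA. In that order of times the differences were 0.65, 3.22, 3.51 and −0.05, with 9.32-fold at the second time and 11.4-fold at the third. The TNF-α arrays at 2, 6 and 12 h all lay above the BSA arrays of those times, and the 24 h array lay within the BSA range. Among all 45253 probe sets this difference was the 59th highest at 6 h and the 43rd highest at 12 h.

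The other LTB probe set, 11739658_a_at, had a like course with a narrower span. It read 6.48, 7.16, 7.14 and 6.09 in TNF-α and 6.31, 6.47, 6.10 and 6.17 in BSA, with differences of 0.17, 0.69, 1.04 and −0.08. Over the 8 arrays the 2 probe sets had r = 0.960. Both put LTB highest in TNF-α at 6 and 12 h and put the TNF-α array at 24 h slightly below its BSA partner. The size at 12 h, 3.51 on one and 1.04 on the other, depends on the probe set.

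TNFSF10 was measured by 3 probe sets. The probe set 11743731_a_at read 4.44, 5.76, 6.41 and 4.59 in TNF-α and 4.32, 4.33, 4.32 and 3.84 in BSA. Its BSA arrays from 2 to 12 h spread by a SD of only 0.00945 (n = 3), and each TNF-α array was above all 4 BSA arrays. The probe set 11743730_at read 3.54, 4.83, 5.44 and 4.92 in TNF-α and 3.80, 3.27, 3.50 and 3.23 in BSA. The third, 11747952_x_at, carries the suffix that the maker gives to probe sets that may also bind other transcripts. It read 3.19, 4.78, 5.55 and 4.71 in TNF-α and 3.29, 3.06, 3.17 and 2.87 in BSA. On these 2 probe sets the TNF-α arrays overlapped the BSA arrays only through 2 h.

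At 2 h the 3 TNFSF10 differences were −0.27, 0.12 and −0.10 in the order of the probe set numbers. They were 1.56, 1.42 and 1.72 at 6 h. At 12 h they were 1.94, 2.09 and 2.38, or 3.83-fold to 5.21-fold. All 3 probe sets were thus highest in TNF-α at 12 h and next highest in TNF-α at 6 h or, for 11743730_at, at 24 h. At 24 h they parted, with differences of 1.69, 0.75 and 1.84. The 24 h value of BSA was the lowest of the 4 BSA arrays on each.

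TNFSF13B, the gene of BAFF, had 2 probe sets that agreed closely over the arrays (r = 0.978). On 11727565_a_at it read 3.37, 3.90, 4.81 and 6.07 in TNF-α at 2, 6, 12 and 24 h, and 3.28, 3.18, 3.27 and 3.43 in BSA. On 11756867_a_at it read 3.80, 3.88, 4.51 and 5.91 in TNF-α and 3.58, 3.59, 3.65 and 3.86 in BSA. In TNF-α the level was higher at each later time on both. The BSA means, 3.29 ± 0.10 and 3.67 ± 0.13 (SD, n = 4 times), lie near the lower quartile of all probe sets, so BAFF transcript in unstimulated cells was close to the dim end of the array.

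The TNFSF13B differences were 0.08, 0.72, 1.55 and 2.64 on the first probe set and 0.22, 0.29, 0.86 and 2.05 on the second. At 12 h these were 2.92-fold and 1.81-fold, and at 24 h 6.23-fold and 4.14-fold. The 24 h differences were the 107th and 222nd highest of 45253, on the array with the wide GAPDH gap. At 12 h, where the array's control gap was 0.24, both probe sets were above every BSA array. BAFF is also made by myeloid cells, so the leukocyte markers were read beside it. Of their 29 probe sets 0 passed the test in either fit. At an unadjusted p under 0.05 in limma these markers gave 0 too, beside 6.49% of all over 4 times and 12.6% over 2, 6 and 12 h. Their mean level was 3.36, 3.39, 3.39 and 3.56 in TNF-α and 3.34, 3.33, 3.29 and 3.25 in BSA. Their differences ran from −0.24 to 0.49 at 2, 6 and 12 h. At 24 h 28 of 29 were above 0, with a median of 0.25 beside 0.13 over all probe sets. Above 0 at that time were also 19 of 22 acinar (median 0.22), 18 of 26 fibroblast (0.08) and 9 of 19 epithelial probe sets (−0.78). The share of all probe sets above 0 was not counted. The lower quartile of all probe sets was itself 3.53 on that TNF-α array and 3.39 on its BSA partner. Of the 29, 1 was at least 2-fold higher, beside 4.64% of all, CD68 at 1.14. ITGAM and CD2 each reached 0.80 at that time, PTPRC 0.49 and CD14 0.18. Their part in the TNFSF13B values was not tested.

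TNF itself had 1 probe set, 11721577_at, with 5.17, 5.05, 4.54 and 4.39 in TNF-α and 4.36, 4.27, 4.34 and 4.03 in BSA. Every TNF-α array was above every BSA array, though the 24 h array by little. TNF was 1.75-fold higher at 2 h and 1.72-fold at 6 h, and its later folds were 1.15 and 1.28. At 2 h its difference was the 234th highest of 45253. These values are of the transcript and not of the added protein.

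The other ligands stayed within a narrow band. Their 8 probe sets had differences from −0.25 to 0.48 at 2, 6 and 12 h, and up to 0.59 at 24 h. LTA read 2.93 to 3.39 in TNF-α and 3.04 to 3.18 in BSA on 11730537_a_at. On its other probe set, 11749403_x_at, it read 4.83 to 5.15 in TNF-α and 4.56 to 5.07 in BSA. The lymphotoxin subunit LTB was thus higher at 6 and 12 h while both probe sets of its partner LTA differed by at most 0.28 at those times. On 11730537_a_at the BSA mean, 3.12, lay under the lower quartile of all probe sets, 3.42. The suffix of 11749403_x_at marks probe sets that may also bind other transcripts. These values therefore do not show that LTA was unchanged.

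TNFSF9 differed by up to 0.39 on 11735139_at (24 h) and 0.48 on 11735140_at (12 h). On the second probe set BSA itself spread by 0.65 over the 4 times, with its lowest level at 24 h, so that the difference is smaller than the spread between BSA arrays. TNFSF14 read 3.06 to 3.48 in TNF-α and 3.04 to 3.40 in BSA over its 2 probe sets. TNFSF15 read 3.04 to 3.72 in TNF-α and 2.99 to 3.50 in BSA. On both genes the BSA mean of every probe set was near or under the lower quartile of all probe sets.

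**Figure D2:**
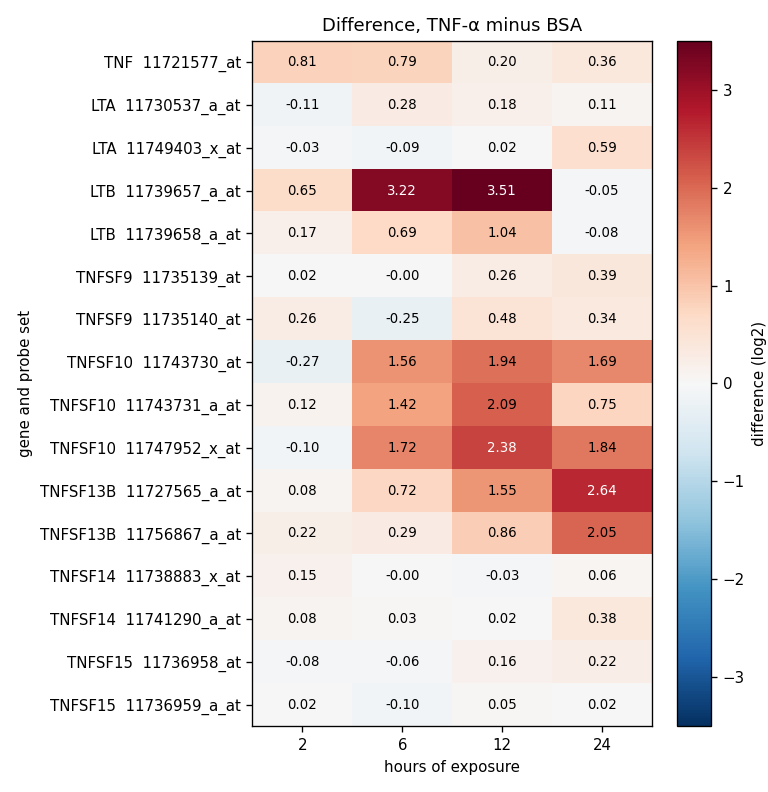
Difference TNF-α minus BSA (log2, colour and printed number) for each ligand probe set (rows) at 2, 6, 12 and 24 h (columns), 1 pair of arrays per cell. The largest values are those of LTB 11739657_a_at at 6 and 12 h (3.22 and 3.51) and TNFSF13B 11727565_a_at at 24 h (2.64).

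Counted without a test, 0 of 16 ligand probe sets were at least 2-fold higher at 2 h, beside 0.389% of all probe sets. The count was 4 at 6 h (1.18% of all), 6 at 12 h (1.11% of all) and 4 at 24 h (4.64% of all). None was 2-fold lower at any time (0 of 16), beside 0.0309%, 0.267%, 0.614% and 10% of all probe sets in the order of the times. At 1 time or more, 7 of 16 ligand probe sets were at least 2-fold higher, beside 5.56% of all, and without the 24 h arrays 6 were, beside 1.61%. The median difference of the ligand probe sets was 0.08, 0.28, 0.37 and 0.37 at 2, 6, 12 and 24 h, beside medians of −0.0145, −0.00326, 0.000437 and 0.13 over all probe sets. At 24 h the median of all probe sets had itself moved, by 0.13.

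The next comparison asked whether the ligands differed over all times. In limma with time as a factor, fitted to all 45253 probe sets, 0 of 16 ligand probe sets passed an adjusted p of 0.05 over the 4 times, beside 0.00442% of all higher and 0% lower. At an unadjusted p under 0.05, 6 of 16 were higher and 0 lower, beside 3.44% of all higher, 3.05% lower and 6.49% in either direction. TNF was 0.54 ± 0.14 higher (SE, 4 pairs of arrays), with an unadjusted p of 0.0108 in limma. LTB was 1.83 ± 0.70 higher on 11739657_a_at and 0.45 ± 0.21 on 11739658_a_at. The TNFSF10 probe sets were 1.23 ± 0.40, 1.10 ± 0.34 and 1.46 ± 0.43 higher. TNFSF13B was 1.25 ± 0.44 higher on 11727565_a_at and 0.85 ± 0.34 on the other. The adjusted p was 0.688 for each of these in limma, so none of them counts as changed over the 4 times.

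Over 2, 6 and 12 h, without the 24 h pair, again 0 of 16 passed in limma, beside 0.186% of all higher and 0.0309% lower. At an unadjusted p under 0.05, 8 of 16 were higher and 0 lower, beside 5.12% of all higher, 7.43% lower and 12.6% in either direction. LTB was 2.46 ± 0.54 higher on 11739657_a_at (SE, 3 pairs, adjusted p = 0.229) and 0.63 ± 0.16 on 11739658_a_at (adjusted p = 0.269). TNF was 0.60 ± 0.14 higher (adjusted p = 0.238). TNFSF10 was 1.08 ± 0.41, 1.21 ± 0.35 and 1.33 ± 0.44 higher (adjusted p from 0.293 to 0.375), and TNFSF13B 0.78 ± 0.26 and 0.45 ± 0.14 higher (adjusted p = 0.333 and 0.308). The TNF-α and BSA arrays of these 3 times did not overlap, with TNF-α higher, on 6 of 16 ligand probe sets (both of LTB, both of TNFSF13B, 1 of TNFSF10 and that of TNF), beside 6.1% of all. With TNF-α lower this held for 0 of 16, beside 5.54% of all. Over the 4 times TNF-α was higher without overlap on 2 of 16, TNF and 1 of TNFSF10, beside 3.1% of all, and lower on 0 of 16, beside 1.14% of all.

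These fits count the scatter of the difference over time as error. Leaving 1 time out of the fit over 2, 6 and 12 h gave 6 of 16 ligand probe sets past the threshold in limma without 2 h, beside 2% of all higher and 1.59% lower, and 0 of 16 without 6 h and without 12 h. Of 2, 6 and 12 h, the fit without 2 h keeps those at which the LTB, TNFSF10 and TNFSF13B differences were largest. Its values describe 6 and 12 h alone and leave out the largest TNF difference, 0.81 at 2 h. Its calls are therefore no independent test of these ligands, and only its sizes are given. LTB was 3.36 ± 0.12 higher on 11739657_a_at (SE, 2 pairs) and 0.86 ± 0.12 on 11739658_a_at. TNFSF10 was 1.75 ± 0.12, 1.76 ± 0.16 and 2.05 ± 0.16 higher. TNFSF13B was 1.13 ± 0.19 higher on 11727565_a_at and 0.57 ± 0.15 on 11756867_a_at. TNF was 0.49 ± 0.15 higher. This fit has 1 residual degree of freedom and leans on the spread of all probe sets.

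**Figure D3:**
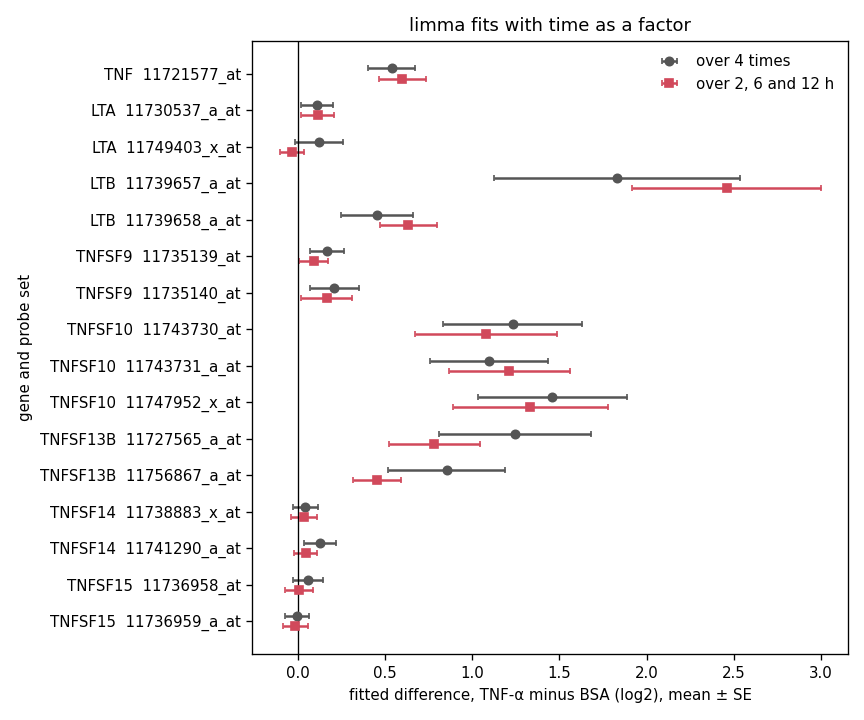
Fitted difference TNF-α minus BSA (log2) with its SE for each ligand probe set, from limma with time as a factor. Grey circles are the fit over 4 times and red squares the fit over 2, 6 and 12 h. LTB, TNFSF10 and TNFSF13B have the largest values with wide SEs, up to 0.70 for LTB, and TNFSF14 and TNFSF15 lie near 0.

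Whether the difference changed with time was tested as its slope against log2 of the hours. In limma 0 of 45253 probe sets passed, with 4.17% at an unadjusted p under 0.05 in either direction and 2.45% with a positive slope. Of the ligands 0 of 16 passed, and 3 of 16 had a positive slope at an unadjusted p under 0.05. For TNFSF13B the slope was 0.70 ± 0.14 per doubling of the hours on 11727565_a_at (SE, 4 pairs, unadjusted p = 0.00325, adjusted p = 0.779 in limma), the 83rd smallest p of all. On 11756867_a_at the slope was 0.49 ± 0.19. The TNFSF10 slopes were 0.57 ± 0.20, 0.26 ± 0.37 and 0.59 ± 0.25, the first of them at an unadjusted p under 0.05. TNF had a negative slope of −0.16 ± 0.08. LTB had slopes of −0.03 ± 0.65 and −0.0050 ± 0.21, with differences high at 6 and 12 h and near 0 at 24 h. Without the 24 h pair the LTB slopes were 1.15 and 0.34.

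Genes most like each of the 3 ligands were taken as those with the highest Pearson r over the 8 arrays among the 7253 probe sets at least 2-fold different at 1 time or more. The arrays share their times and treatments, so these r values describe a pattern. For LTB (11739657_a_at) they were TNIP1, a partner of the NF-κB inhibitor A20 (r = 0.991), SERPINB8 (0.989), the chemokine CXCL10 (0.982), the lipid kinase subunit PIK3CD (0.981) and the ubiquitin ligase NEDD4L (0.981). For TNFSF10 (11747952_x_at) they were GPRC5B (0.997), the chemokine CCL5 (0.993), the hyaluronan receptor CD44 (0.990), the actin-bundling protein LCP1 (0.986) and the zinc transporter SLC39A8 (0.986). For TNFSF13B (11727565_a_at) they were PLSCR1 (0.997), the RNA helicase relative DHX58 (0.994), IFI27 (0.993), the antiviral enzyme OAS1 (0.991) and IFITM1 (0.991). At 24 h OAS1 was 3.77 and IFITM1 4.75 higher, beside 2.64 for TNFSF13B. The TNF-α array at 24 h, with the wide GAPDH gap, held the highest level of TNFSF13B and of each gene named with it. Their r values lean on that array, and r without it was not computed.

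**Figure D4:**
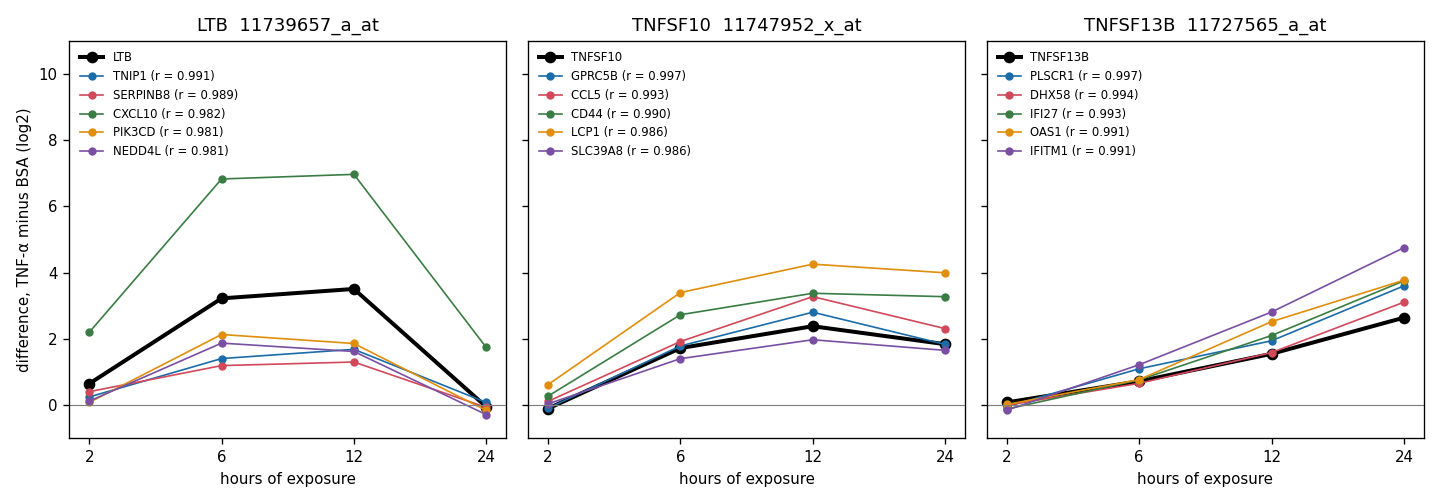
Difference TNF-α minus BSA (log2) at 2, 6, 12 and 24 h for LTB, TNFSF10 and TNFSF13B (black) and for the 5 genes with the highest r over the 8 arrays (colours, r in the legend). The LTB group is high at 6 and 12 h and lower at 24 h, and the TNFSF13B group is largest at 24 h.

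Between the ligands, the levels of LTB and TNFSF10 had r from 0.617 to 0.942 over the 8 arrays, by probe set. LTB and TNFSF13B had r from −0.11 to 0.25, and TNFSF10 and TNFSF13B from 0.230 to 0.789. With 8 arrays that share 4 times, these are descriptions only. On the TNF-α array at 24 h LTB was at the level of BSA and TNFSF13B at its highest.

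Other ligands of the family were read from a list of 9, of which 8 genes with 21 probe sets were measured. Over 4 times and over 2, 6 and 12 h 0 of 21 passed in limma in either direction, and at an unadjusted p under 0.05 there were 4 higher and 0 lower over 4 times (3.44% and 3.05% of all probe sets), and 2 and 0 over 2, 6 and 12 h (5.12% and 7.43% of all). CD70, the ligand of CD27 on lymphocytes, read 7.61, 8.38, 8.82 and 7.03 in TNF-α and 7.25, 7.45, 6.95 and 6.08 in BSA on 11731682_at. It was 1.05 ± 0.27 higher over 2, 6 and 12 h without passing (SE, 3 pairs, adjusted p = 0.264 in limma). At 12 h its difference was 1.87, which made 1 of 21 probe sets at least 2-fold higher, beside 1.11% of all. At 2, 6 and 24 h 0 of 21 were, beside 0.389%, 1.18% and 4.64% of all. The other CD70 probe set differed by 0.08 to 0.44. EDA, the ectodysplasin of skin appendages, was 0.29 ± 0.10 higher on 1 of its 8 probe sets (adjusted p = 0.339 in limma).

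Of 15 listed receptors for the 9 ligands, 14 were measured on 35 probe sets. In limma 2 of 35 rose and 0 fell over 2, 6 and 12 h, beside 0.186% and 0.0309% of all, and 0 passed over 4 times, beside 0.00442% and 0%. TNFRSF9, the receptor of TNFSF9, rose by 4.63 ± 0.37 (SE, 3 pairs, adjusted p = 0.0241 in limma), with 7.47, 9.03, 9.08 and 5.23 in TNF-α and 4.05, 4.03, 3.62 and 4.64 in BSA. Its ligand TNFSF9 differed by −0.25 to 0.48 over the same times. TNFRSF10B, a death receptor for TNFSF10, rose by 0.82 ± 0.07 on 11719680_x_at (adjusted p = 0.0281 in limma). That suffix marks probe sets that may also bind other transcripts. Its other 2 probe sets were 0.15 to 0.52 higher at 2, 6 and 12 h. They did not pass (adjusted p = 0.109 and 0.345 in limma). At 24 h the TNFRSF10B differences were 0.24, 1.22 and −0.65 in the order of the probe set numbers. TNFRSF10A, the other death receptor, differed by 0.04 to 0.41 from 2 to 12 h.

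The receptors of BAFF, which belong to B cells, were read too. TNFRSF13C (BAFF receptor) read 3.65 to 3.99 in TNF-α and 3.61 to 3.83 in BSA, and TNFRSF17 (BCMA) 2.52 to 2.66 in TNF-α and 2.48 to 2.62 in BSA. TNFRSF13B (TACI) read 3.53 to 5.14 in TNF-α and 3.38 to 5.04 in BSA over its 4 probe sets, and differed by −0.33 to 0.33. Its probe sets 11738483_a_at and 11738484_x_at lay above the 4.38 mark used for the marker lists on every array. LTBR, the receptor of membrane lymphotoxin, differed by −0.30 to 0.49 over its 2 probe sets, without passing.

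Proteases that free these ligands from the membrane, and their partners, had 8 genes and 24 probe sets, with 0 past the threshold in limma in either fit. At an unadjusted p under 0.05 there were 3 higher and 2 lower of 24 over 2, 6 and 12 h, beside 5.12% and 7.43% of all, and 1 and 1 over 4 times, beside 3.44% and 3.05%. PCSK5, a proprotein convertase, was −0.40 ± 0.10 (adjusted p = 0.266 in limma) and RHBDF2, the partner of the TNF-cutting protease ADAM17, 0.44 ± 0.13 (adjusted p = 0.298 in limma). Of 13 receptor adaptors and effectors, 10 were measured on 38 probe sets. Over 2, 6 and 12 h 1 of 38 rose and 0 fell in limma, beside 0.186% and 0.0309% of all, and 0 passed over 4 times, beside 0.00442% and 0%. It was 11724902_a_at of MAP3K14, the kinase of the noncanonical NF-κB pathway that LTBR and the BAFF receptor use. This probe set rose by 1.39 ± 0.11 (SE, 3 pairs, adjusted p = 0.0263 in limma). The other MAP3K14 probe set, 11724903_a_at, did not pass and differed by −0.03 ± 0.09 over the same times. TRAF3, an adaptor that holds MAP3K14 down in resting cells, was 0.76 ± 0.14 higher on 11759502_at and did not pass (adjusted p = 0.174 in limma).

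A list of transcription factors and interferon genes had 12 measured genes and 29 probe sets. Whether they act on these promoters was not tested. In limma 4 of 29 probe sets (3 genes) rose over 2, 6 and 12 h and 0 fell, beside 0.186% and 0.0309% of all, and 0 passed over 4 times, beside 0.00442% and 0%. IRF1, an interferon regulatory factor, rose by 2.99 ± 0.32 (adjusted p = 0.0494) and 2.44 ± 0.11 (adjusted p = 0.00425) on 2 probe sets in limma. RELB, the NF-κB subunit of the noncanonical pathway, rose by 2.51 ± 0.17 (adjusted p = 0.0189 in limma), and NFKB1, the precursor of p50, by 2.32 ± 0.18 (adjusted p = 0.0241 in limma). The interferon genes IFNB1 and IFNL1 differed by 0.15 ± 0.07 and 0.02 ± 0.09 over these times, and neither passed. RELB differed by 2.00, 2.65, 2.89 and 1.39 at 2, 6, 12 and 24 h, and LTB by 0.65, 3.22, 3.51 and −0.05 on 11739657_a_at. A link between them was not tested. The median difference over 2, 6 and 12 h was 0.49 for this list, 0.28 for the adaptors, 0.11 for the receptors, 0.07 for the proteases and 0.05 for the other ligands, beside −0.0044 over all probe sets.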

How the data were processed

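The 8 NS-SV-AC samples were measured on Affymetrix GeneAtlas arrays with a 3′ IVT labelling kit, per the labels' protocols. The deposited values are log2, for 49386 probe sets on each array, made by the authors with RMA per the submitters' processing notes (software version not given in the sources used here). They entered the tests as deposited, with no filter or pseudocount. Arrays have no read depth, and their number limits the precision.

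Probe sets were named by the platform annotation, with symbols updated by Entrez identifier (18180 matched the RefSeq gene table, 62 did not). 45253 had 1 symbol and were tested. 1327 had several symbols and were left out. The 2800 with no symbol listed and the 93 control probe sets, groups that overlap, were left out too. Every probe set with 1 symbol was tested by itself, since probe sets of a gene can disagree.

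Differences were fitted by lmFit and eBayes of limma 3.58.1 under R 4.3.3, two-sided, with time as a factor over 4 times (3 residual degrees of freedom) and over 2, 6 and 12 h (2), and as treatment × log2(hours) (4). Benjamini-Hochberg adjustment ran over all probe sets, and 0.05 was the threshold. Single times had no test. Since no group has a replicate, a p-value reflects only how these arrays scatter, through noise or through change with time, and the scatter may be technical. Each other list names up to 4 probe sets past the threshold over 2, 6 and 12 h, or the 2 genes with the smallest p where fewer than 2 passed, and the likeness rule names 5 genes. TNFRSF10A, TNFRSF13B, TNFRSF13C, TNFRSF17 and LTBR were added as receptors of the ligands after their values were seen. The interferon genes IFNB1 and IFNL1 were added in the same way. The members and lists were chosen with earlier results of these data known. Alternatives covered the probe set summary, normalization, a filter on dim probe sets, array weights, the time block and each time left out.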

Additional observations from a re-analysis of the deposited data

How the results depend on the processing

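Over the 4 times, the count of all probe sets past the threshold was 2 higher and 0 lower. It became 1 higher when a gene's probe sets were averaged, 4 higher without the dimmest probe sets, and 31 higher and 1 lower with array quality weights. Leaving out 1 time gave 0 to 84 higher and 0 to 14 lower, the highest without the 24 h pair. The ligand count was 0 under each of these. Over 2, 6 and 12 h the counts were 84 higher and 14 lower, with 9 lower for 1 probe set per gene, and 30 higher and 6 lower for the mean of probe sets. Leaving out 1 time gave 5 to 906 higher, 1 to 718 lower and 0 to 6 ligand probe sets, the highest without the 2 h pair. The labels give no replicate numbers, and time was the block. Without the replicate block (treatment alone) 6 were higher and 0 lower over 2, 6 and 12 h, and 3 and 0 over 4 times. With gene means, 2, 3 and 2 of 8 ligand genes were at least 2-fold higher at 6, 12 and 24 h. Over single probe sets the shares of all were 1.18%, 1.11% and 4.64% at those times, and no share was taken over gene means. The count of 7 ligand probe sets at least 2-fold higher at any time was 6 without the 24 h pair, an alternative chosen after seeing the data. Signs turned only for values near 0 and for the LTB slopes. Over 4 times TNFSF14 11738883_x_at was −0.0085 after quantile normalization again, LTA 11749403_x_at was −0.0192 with array weights and −0.0344 to 0.19 with 1 time left out, and TNFSF15 11736959_a_at was −0.0228 to 0.0272 with 1 time left out. Over 2, 6 and 12 h the mean of probe sets gave 0.0400 for LTA and −0.0040 for TNFSF15, whose probe set 11736958_at was −0.0170 after quantile normalization, −0.0041 after centring, −0.0038 with array weights and −0.0697 to 0.0492 with 1 time left out. With 1 time left out TNFSF14 11738883_x_at was −0.0187 to 0.0724 and TNFSF15 11736959_a_at −0.0439 to 0.0311. Slopes without 24 h were 1.15 and 0.34 for LTB and −0.0263 for TNFSF14 11741290_a_at, and after quantile normalization 0.0707 for LTB 11739658_a_at and −0.0257 for TNFSF15 11736959_a_at. The cause of these shifts was not tested.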
